A study of Homo sapiens with 8 samples.

Results

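The 9 genes described here carry out or feed steroid hormone synthesis as the placenta does it. They are STARD3 and STAR, which move cholesterol, CYP11A1 with its electron donor FDX1, and the enzymes HSD3B1, CYP17A1, STS, CYP19A1 and HSD17B1. The genes were chosen by symbol with earlier results on their levels in these samples known, and where a symbol stood on several entries the entry with the highest mean was to be taken. Each of the 9 symbols stood on 1 of the 63816 gene entries of the table, so that second step chose nothing. Because levels were known when the set was drawn up, they are given below as a description, without a test.

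The samples were labelled Caco-2, an established line from a human colorectal adenocarcinoma. Of 12 markers of colon epithelium 10 had a mean under 1 TPM in them, KRT20, FABP1 and SI being at 0 throughout. The other 2, the transcription factors CDX1 and CDX2, averaged 147 and 40.6 TPM. Of 16 trophoblast-associated genes, 11 reached 1 TPM in at least 4 samples and 5 did not. Among the 11, GATA3, KRT7 and VGLL1 averaged 380, 247 and 177 TPM. Most of the colon markers thus go against the labelled tissue, while CDX1 and CDX2 go with it. Caco-2 is used below as the name on the label. The 4 empty vector samples carried the expression plasmid pcDNA3.1 with no insert, and the 4 Siglec-XII samples carried the same plasmid with SIGLEC12, which encodes the sialic acid binding family receptor Siglec-XII. Both groups had therefore been transfected and kept in G418, the drug for which the plasmid carries resistance, and they differed by the insert. Each group came from its own transfection and selection of stable cells, so the insert and the history of the selected cells cannot be told apart. The series text counts fewer cultures for each condition than the 4 samples that the labels list, and the methods mention technical replicate libraries. The p-values below thus measure the spread between these samples, which may be technical. SIGLEC12 (ENSG00000254521) stood at 0.0795 ± 0.0342 TPM in the empty vector samples and at 1667 ± 71.3 TPM in the Siglec-XII samples (SD, n = 4 each), which fits the labels. TPM is a transcript's share of all transcripts, corrected for length and scaled to 1e+06 per sample.

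Placental steroid synthesis takes place in the trophoblast, the epithelium of the placenta. Cholesterol is carried to the inner mitochondrial membrane, where CYP11A1 cuts its side chain with electrons passed on by FDX1, and HSD3B1 turns the product pregnenolone into progesterone. The placenta makes little CYP17A1, which other steroid tissues use to turn such progestins into androgens, and builds oestrogen instead from sulfated androgens that reach it from outside. STS removes the sulfate, HSD3B1 acts again, CYP19A1 (aromatase) makes oestrone and HSD17B1 reduces oestrone to oestradiol. In the placenta STARD3 is thought to stand in for STAR, the cholesterol carrier of adrenal and gonad.

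In these samples HSD3B1, HSD17B1 and STS, which work on steroids already made, were present at high levels. CYP19A1 and CYP17A1 also work on such steroids, but CYP19A1 was low and CYP17A1 near 0. The enzyme that makes the first steroid from cholesterol, CYP11A1, was close to 0 as well. HSD3B1 was at 316 to 370 TPM, HSD17B1 at 124 to 157 TPM and STS at 61.2 to 67.4 TPM over the 8 samples. STARD3 and FDX1 followed at 33.0 to 41.7 and 19.2 to 21.9 TPM, and CYP19A1 was far lower at 2.28 to 7.29 TPM. The ranges of these 6 genes did not overlap, so their order by TPM was the same in every sample. That order depends on the transcript lengths used, a limit given below for HSD3B1. CYP17A1 (0 to 1.15 TPM), STAR (0 to 0.589 TPM) and CYP11A1 (0 to 0.166 TPM) lay below them, and these 3 neighbours did not differ beyond their spread. The set as measured therefore holds HSD3B1, STS and HSD17B1 at high levels, with little CYP19A1 and nearly none of the first enzyme. The near absence of CYP11A1 goes against calling the whole set expressed.

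**Figure D1:**
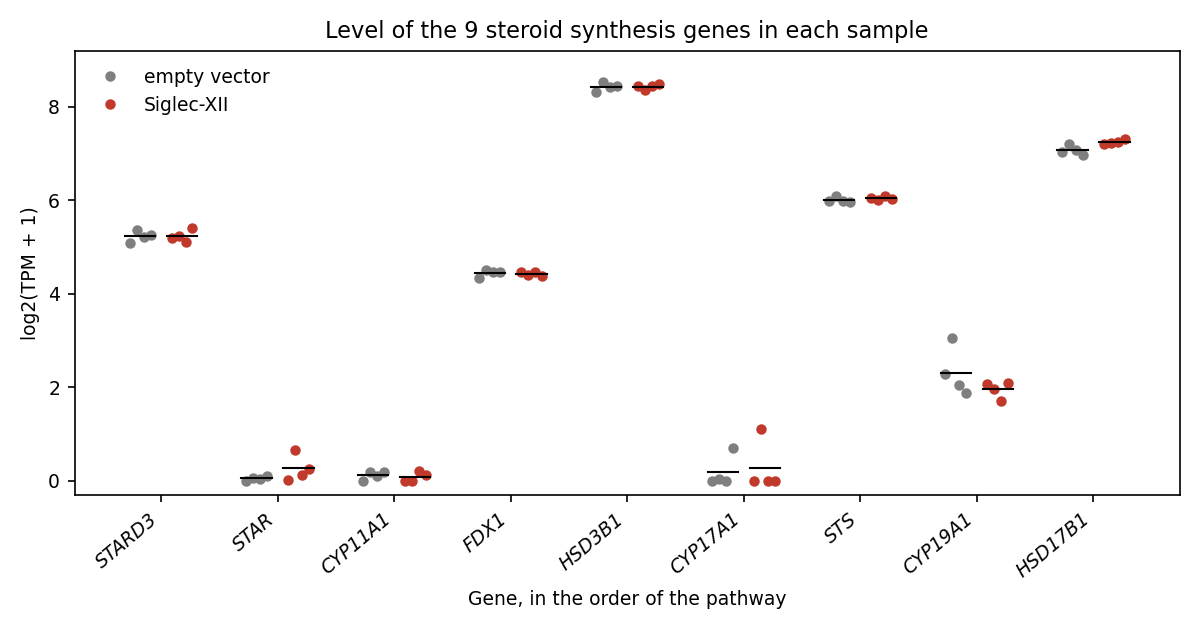
Level of each gene as log2(TPM + 1) on the vertical axis, with 1 point per sample for the 4 empty vector (grey) and 4 Siglec-XII (red) samples and a black bar at each group's mean. HSD3B1 stood highest at 8.31 to 8.53, CYP19A1 ran from 1.71 to 3.05, and STAR, CYP11A1 and CYP17A1 lay near 0 with single higher samples.

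Of the 9 genes, 6 passed the filter of 1 TPM in at least 4 samples, and 0 of these 6 had an adjusted p under 0.05 between Siglec-XII and empty vector (limma, Benjamini-Hochberg over 15590 entries). Over all tested entries 0.648% were called in either direction. At an unadjusted p under 0.05 there was 1 of the 6, HSD17B1, and 16.5% of all tested entries. HSD17B1 was also the 1 gene of the 6 whose groups did not overlap, as was so for 10.8% of all tested entries. Neither count stands apart from its background. The median of the 6 differences was 0.01 in log2(TPM + 1), Siglec-XII minus empty vector, and that of all tested entries was 0.07. The other 3 genes lay below the filter and were compared with a two-sided exact permutation test, which with 4 against 4 samples cannot give a p below 0.0286. Summed over the 9 genes, the level was 565 to 653 TPM in the empty vector samples and 601 to 646 TPM in the Siglec-XII samples. In bulk RNA, fewer cells that express a gene and less RNA per cell cannot be told apart.

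Sequences before the start site are shown for the most abundant gene and for a pair of enzymes near 0, so that the letters on either side of that contrast can be read. They are the 250 bases upstream of the start in RefSeq on GRCh38.p14, 5′ to 3′ on the gene's strand. For HSD3B1 the RefSeq table held 2 windows, and the first is shown. Matches to the searched motifs are in capitals.
HSD3B1 (chr1:119506953-119507202, plus strand): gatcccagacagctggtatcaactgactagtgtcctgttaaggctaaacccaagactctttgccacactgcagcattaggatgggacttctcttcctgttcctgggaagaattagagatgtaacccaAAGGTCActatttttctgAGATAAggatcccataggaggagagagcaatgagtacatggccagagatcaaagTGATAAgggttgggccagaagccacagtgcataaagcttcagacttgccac
CYP11A1 (chr15:74367647-74367896, minus strand): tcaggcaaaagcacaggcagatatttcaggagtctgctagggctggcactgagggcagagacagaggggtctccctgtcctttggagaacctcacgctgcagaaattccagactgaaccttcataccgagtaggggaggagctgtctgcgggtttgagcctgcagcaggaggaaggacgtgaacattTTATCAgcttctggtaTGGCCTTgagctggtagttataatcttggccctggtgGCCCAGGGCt
CYP17A1 (chr10:102837414-102837663, minus strand): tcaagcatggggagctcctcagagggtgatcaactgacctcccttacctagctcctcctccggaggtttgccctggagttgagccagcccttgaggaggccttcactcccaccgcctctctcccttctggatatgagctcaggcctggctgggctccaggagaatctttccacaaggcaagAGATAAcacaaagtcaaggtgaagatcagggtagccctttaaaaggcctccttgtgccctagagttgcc
On both strands, 5 motifs were searched, and no capitals of one overlap those of another. The GATA motif was AGATAA or TGATAA or AGATAG or TGATAG, the NR5A motif (bound by SF-1 and its relative) AAGGTCA or AAGGCCA, the TFAP2 motif GCCNNNGGC, the TEAD motif GGAATG and the CRE motif TGACGTCA. HSD3B1 held 2 GATA matches and 1 NR5A match. CYP11A1 held 1 GATA match and 1 NR5A match, both on the opposite strand, and 1 TFAP2 match. CYP17A1 held 1 GATA match. The shares of all 35116 windows with a match were 22.3% for GATA, 7.62% for NR5A, 19.8% for TFAP2, 11.9% for TEAD and 1.65% for CRE. Letters of the GATA motif were thus present before the most abundant gene and before both that were near 0. Of the 9 genes, 7 had a window in the table, and HSD17B1 and STAR had none. Gene positions below are on GRCh37 from the lifted GENCODE annotation and were not converted to the build of these windows.

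STARD3 (ENSG00000131748, chr17:37793343-37820454, plus strand, 15 exons) encodes a late endosomal protein that binds cholesterol. Its level was 33.0, 40.1, 36.2 and 37.1 TPM in empty vector samples 1 to 4 and 35.8, 36.9, 33.6 and 41.7 TPM in Siglec-XII samples 1 to 4. The groups overlapped over nearly their whole range. The difference in log2(TPM + 1) was 0.02 (95% interval -0.16 to 0.19, adjusted p = 0.942), and it turned negative with quantile normalization and with equal upper quartiles.

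STAR (ENSG00000147465, chr8:38000218-38008510, minus strand), which brings cholesterol across the mitochondrial membranes in adrenal and gonad, stood at 0, 0.0490, 0.0353 and 0.0713 TPM in the empty vector samples and at 0.0199, 0.589, 0.0928 and 0.201 TPM in the Siglec-XII samples. Siglec-XII sample 2 was the highest, and the other 7 samples were at or below 0.201 TPM. The permutation test gave p = 0.143 for the groups. STAR overlaps ASH2L on the opposite strand, which was at 30.3 to 34.4 TPM.

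CYP11A1 (ENSG00000140459, chr15:74630100-74659987, minus strand, 9 exons), the side chain cleavage enzyme, stood at 0, 0.136, 0.0844 and 0.143 TPM in the empty vector samples and at 0, 0, 0.166 and 0.0975 TPM in the Siglec-XII samples. It was listed at 0 in 3 of the 8 samples and the groups overlapped (two-sided exact permutation p = 0.743). Its electron donor FDX1 (ferredoxin, ENSG00000137714, chr11:110300672-110335608, plus strand, 4 exons) stood at 19.2, 21.9, 21.1 and 21.0 TPM with the empty vector and at 21.2, 20.2, 21.3 and 19.8 TPM with Siglec-XII. FDX1 also serves mitochondrial enzymes outside steroid synthesis. Its difference was -0.01 (95% interval -0.15 to 0.13, adjusted p = 0.940).

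HSD3B1 (ENSG00000203857, chr1:120049821-120057677, plus strand), which oxidises pregnenolone to progesterone and the androgen precursor DHEA to androstenedione, was the most abundant of the 9. Its level was 316, 370, 344 and 348 TPM in the empty vector samples and 348, 327, 347 and 359 TPM in the Siglec-XII samples, or 344 ± 21.9 against 345 ± 13.3 TPM (SD, n = 4 each). Between 97.2% and 97.6% of the tested entries lay below it in each sample. The empty vector samples spanned the Siglec-XII samples, and the difference was 0.00 in log2(TPM + 1) (95% interval -0.12 to 0.13, adjusted p = 0.976). The entry names a transcript of 352 bases in 3 exons whose end is incomplete in the annotation. Whether the value is a sum over the gene's transcripts is not given in the sources used here, so the level of HSD3B1 relative to the other genes depends on the length that was used.

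HSD3B1 has a near-identical neighbour, HSD3B2, which is the form of adrenal and gonad. HSD3B2 was at 0 to 0.243 TPM, with a mean of 0.118 TPM. Pseudogenes of the family were also low, with HSD3BP5 highest at up to 0.499 TPM and HSD3BP1 listed at 0 in every sample. Reads shared between such copies can be divided among them, and nearly all of the family's signal was given to HSD3B1 in every sample.

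CYP17A1 (ENSG00000148795, chr10:104590288-104597229, minus strand, 7 exons), the enzyme that turns progestins into androgens, stood at 0, 0.0351, 0 and 0.636 TPM in the empty vector samples and at 0, 1.15, 0 and 0 TPM in the Siglec-XII samples. Empty vector sample 4 and Siglec-XII sample 2 were the only samples above 0.0351 TPM, and the groups overlapped (two-sided exact permutation p = 1). CYP17A1 overlaps WBP1L, which lies on the other strand and was at 72.6 to 98.5 TPM. The part of that overlap in the CYP17A1 values was not tested.

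STS (steroid sulfatase, ENSG00000101846, chrX:7065278-7772399, plus strand), which frees steroids from their sulfate, stood at 62.5, 67.4, 62.2 and 61.2 TPM in the empty vector samples and at 65.4, 63.4, 67.2 and 64.7 TPM in the Siglec-XII samples. It was the steadiest of the 6 tested genes, with the highest sample 1.10 times the lowest. Its residual SD was 0.05 in log2(TPM + 1), below the median of 0.0945 for entries of like level. The difference was 0.04 (95% interval -0.06 to 0.15, adjusted p = 0.695) and became -0.02 after quantile normalization or scaling to equal upper quartiles. STS overlaps PUDP, on the opposite strand and at 31.6 to 38.2 TPM, and holds MIR4767 on its own strand, listed at 37.2 to 153 TPM. The part of STS reads in the MIR4767 values was not tested, so these are not read as the level of a microRNA.

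CYP19A1 (aromatase, ENSG00000137869, chr15:51500254-51630798, minus strand, 10 exons), which makes oestrogens from androgens, was the least even of the 6. Its level was 3.88, 7.29, 3.13 and 2.70 TPM with the empty vector and 3.22, 2.91, 2.28 and 3.27 TPM with Siglec-XII. Empty vector sample 2 stood apart from the other 7 samples, which lay between 2.28 and 3.88 TPM. The difference in log2(TPM + 1) was -0.35 (SE 0.23, 95% interval -0.88 to 0.17, adjusted p = 0.479), and without empty vector sample 2 it was -0.11. Its residual SD of 0.386 was above that of 84.9% of entries of like level, for which the median was 0.211.

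HSD17B1 (ENSG00000108786, chr17:40704940-40707232, plus strand, 6 exons), which reduces oestrone to oestradiol, stood at 130, 146, 135 and 124 TPM in the empty vector samples and at 146, 149, 150 and 157 TPM in the Siglec-XII samples. The groups did not overlap, but the highest empty vector sample and the lowest Siglec-XII sample both stood at 146 TPM after rounding. The means were 134 ± 9.42 and 151 ± 4.64 TPM (SD, n = 4 each). The difference was 0.17 in log2(TPM + 1) (SE 0.06, 95% interval 0.05 to 0.30) and did not pass the test, with an unadjusted p of 0.0115 and an adjusted p of 0.183. Over 16 alternative settings it lay between 0.11 and 0.22, with adjusted p from 0.0785 to 0.402. HSD17B1-AS1, an overlapping gene on the opposite strand, was at 4.31 to 6.29 TPM, and the pseudogene HSD17B1P1 averaged 0.287 TPM.

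**Figure D2:**
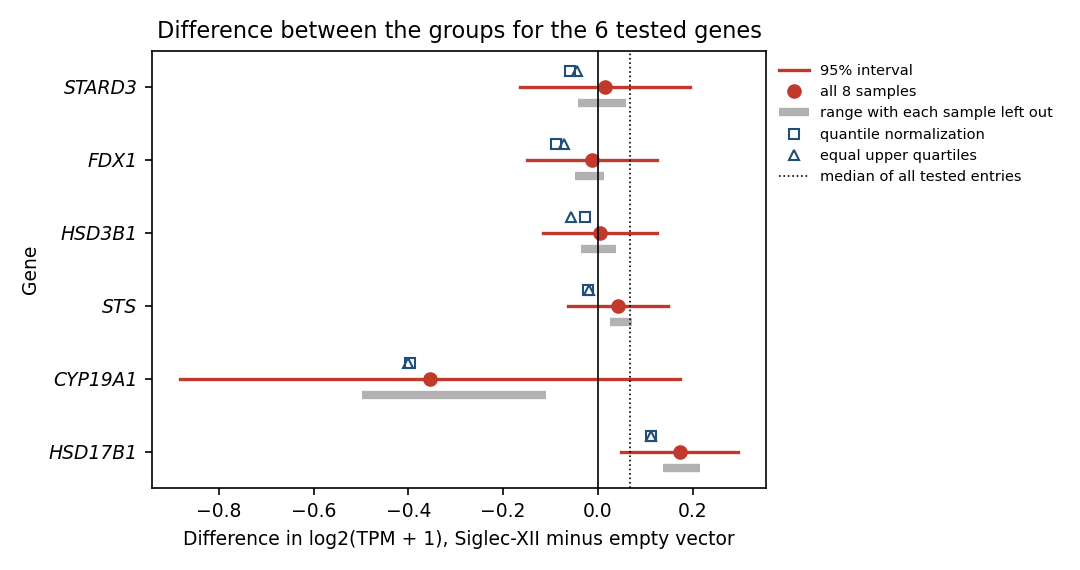
Difference in log2(TPM + 1), Siglec-XII minus empty vector, on the horizontal axis for the 6 tested genes, with its 95% interval (red), the range over fits with each sample left out (grey), the values under 2 other scalings (open symbols) and the median of all tested entries (dotted, 0.07). HSD17B1 had the one interval that did not reach 0 (0.05 to 0.30), and the interval of CYP19A1 was the widest (-0.88 to 0.17).

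Ratios within a sample do not depend on how samples are scaled to each other, and they are given as a description. HSD3B1 over HSD17B1 in TPM was 2.58 ± 0.163 with the empty vector, range 2.43 to 2.81, and 2.29 ± 0.0721 with Siglec-XII, range 2.20 to 2.38 (SD, n = 4 each). STS over HSD17B1 was 0.474 ± 0.0160 and 0.433 ± 0.0172. Both ratios to HSD17B1 were lower in all 4 Siglec-XII samples than in any empty vector sample. They share HSD17B1, whose own groups did not overlap, as in 10.8% of all tested entries, so they repeat that result. How often ratios of other entries separate the groups was not computed. HSD3B1 over FDX1 was 16.6 ± 0.256 and 16.8 ± 0.914, with overlapping groups. HSD17B1 over CYP19A1 was 35.6 ± 11.7 and 52.6 ± 9.23, with a slight overlap.

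The other genes of the pathway were read in the same fit, in 7 lists, and 0 of the 37 genes of these lists that passed the filter had an adjusted p under 0.05 by limma, while 6 had an unadjusted p under 0.05, a share near the 16.5% of all tested entries. All 9 genes of cholesterol supply passed the filter, and 3 of them had an unadjusted p under 0.05, a count too small to read against the 16.5% of all tested entries. NPC2, which takes cholesterol out of the lysosome with NPC1, averaged 278 TPM (difference -0.12, adjusted p = 0.251), the lipoprotein receptor SCARB1 51.3 TPM (difference 0.11) and the cholesterol carrier STARD4 47.5 TPM (difference 0.03, which turned negative under both other scalings). The median difference of the list was 0.11. All 5 electron transfer partners passed the filter, and 0 had an unadjusted p under 0.05. CYB5R3 was at 112 TPM, POR, which feeds microsomal enzymes such as CYP17A1 and CYP19A1, at 43.2 TPM and CYB5A at 41.1 TPM on average. FDXR, the reductase that loads FDX1, lies outside the rule for named genes and averaged 19.6 TPM, close to the level of FDX1. The partners of both enzyme kinds were thus expressed beside CYP11A1 and CYP17A1, which were near 0.

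Among the other enzymes of steroid synthesis, 4 of 10 passed the filter. HSD17B12 averaged 92.9 TPM, HSD17B7 19.3 TPM and SRD5A1 6.61 TPM, and the first pair also have roles in lipid and sterol synthesis. CYP11B1 and CYP11B2, which complete cortisol and aldosterone in the adrenal, were listed at 0 in all samples. Of the genes of steroid inactivation and conjugation 5 of 12 passed the filter, led by HSD17B10 (101 TPM) and HSD17B4 (77.9 TPM), which also serve mitochondrial and peroxisomal metabolism. HSD11B2, the cortisol inactivating enzyme of placenta and kidney, averaged 2.26 TPM, and HSD11B1 was listed at 0 in all samples. Of the handling of sulfated precursors 4 of 6 genes passed, with the exporter ABCG2 at 99.2 TPM and SUMF2 and SUMF1 at 32.5 and 20.3 TPM. SUMF1 activates sulfatases such as STS.

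Of the regulators of steroid enzyme genes, 10 of 14 passed the filter, and all 10 differences were above 0 in the values as deposited, with a median of 0.17, while 68.1% of all tested entries were above 0. PRKAR1A, the regulatory subunit of protein kinase A, averaged 190 TPM (difference 0.04, which turned negative under both other scalings), the placental and blood factor GATA2 139 TPM and the nuclear receptor NR4A1 49.5 TPM (difference 0.19, adjusted p = 0.332). GATA2 had the lowest adjusted p of these genes (difference 0.19, SE 0.05, adjusted p = 0.103). The groups of 2 of the 10 genes did not overlap, beside 10.8% of all tested entries. They were GATA2 and GATA6, and GATA6 (28.0 TPM, difference 0.31, adjusted p = 0.204) was named after its values were seen. NR5A1, which encodes SF-1 and drives these enzymes in adrenal and gonad, averaged 0.123 TPM, and NR0B1 was listed at 0 in all samples. Of the 7 steroid receptors 0 passed the filter. GPER1 (0.456 TPM), the glucocorticoid receptor NR3C1 (0.315 TPM) and the oestrogen receptor ESR2 (0.195 TPM) had the highest means.

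**Figure D3:**
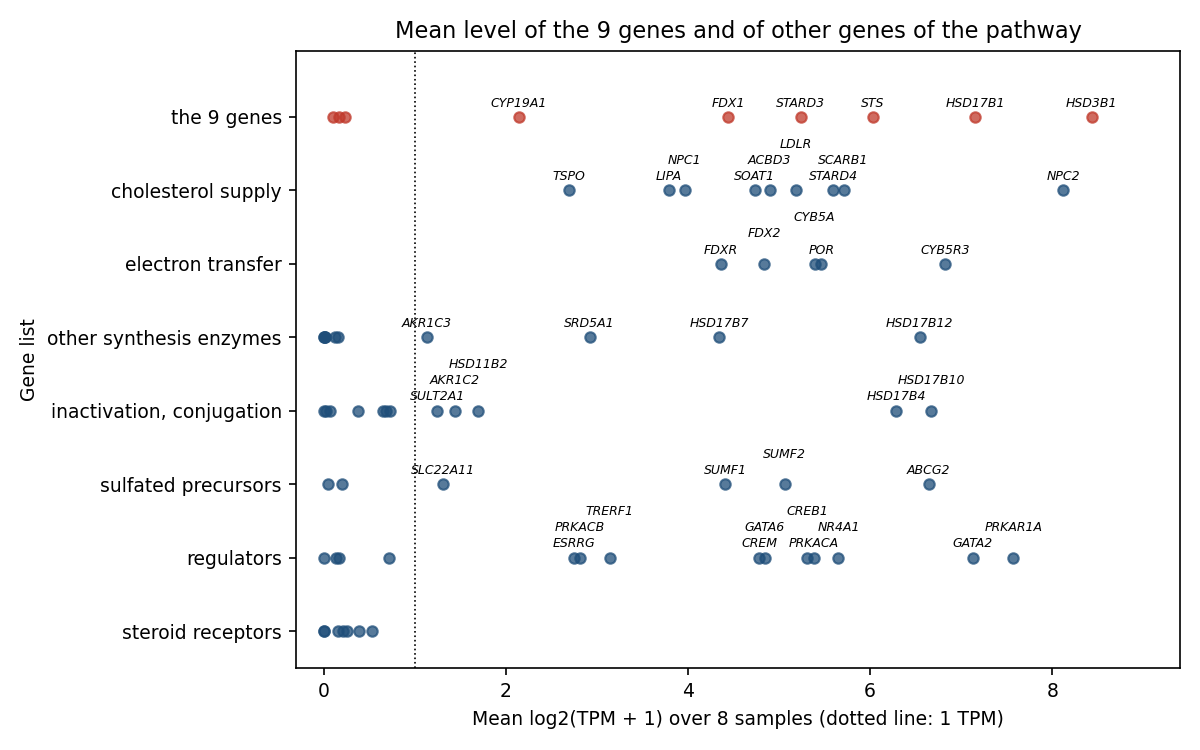
Mean level over 8 samples as log2(TPM + 1) on the horizontal axis, 1 point per gene, for the 9 genes (red) and 7 lists of other pathway genes (blue), with the dotted line at 1 TPM and names on genes above it. All 9 genes of cholesterol supply and all 5 of electron transfer lay above the line, and all 7 steroid receptors lay below it.

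Markers of cell types were read for the label of the samples and of the set. Of 12 markers of colon epithelium 2 passed the filter, the transcription factors CDX1 (147 TPM) and CDX2 (40.6 TPM). KRT20, FABP1 and SI of the same list were at 0 in all samples, while VIL1 was at 0.641 and HNF4A at 0.0888 TPM on average. The summed level of the colon list was 163 to 186 TPM with the empty vector and 190 to 215 TPM with Siglec-XII, so that the groups did not overlap. The sums of electron transfer partners (233 to 241 and 245 to 264 TPM) and of regulators (467 to 536 and 542 to 568 TPM) did not overlap either, and these were 3 of the 12 sums formed, that of the 9 genes included. Single entries did not overlap in 10.8% of cases, but how often sums over as many entries do so was not computed. Of the tested genes in the colon and electron transfer lists, 0 had groups that did not overlap. CDX1 and CDX2 made up nearly all of the colon sum. Sums were formed only in the values as deposited, where the median difference of all tested entries was 0.07. The adjusted p of CDX1 was 0.202, and the part of these sums in the difference of HSD17B1 was not tested.

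Of 16 trophoblast markers 11 passed the filter. The early trophoblast factors GATA3 (380 TPM), TFAP2C (161 TPM) and TFAP2A (33.0 TPM), the keratin KRT7 (247 TPM), the cofactor VGLL1 (177 TPM) and SIGLEC6 (139 TPM) were abundant, whereas ELF5, another early trophoblast factor, averaged 0.390 TPM and did not pass the filter. Genes of the hormone-making syncytium were low: CGA averaged 0.785, CGB3 0.0776, CSH1 0.10, GCM1 0.672, PSG1 1.22 and ERVW-1 1.40 TPM. The list summed to 1040 to 1226 TPM with the empty vector and 1075 to 1189 TPM with Siglec-XII. Several of these genes are also expressed in other epithelia, and no cell type is assigned from them. Of 10 markers of adrenal and gonadal steroid cells 1 passed, AMH at 3.05 TPM, and CYP11B1, CYP11B2 and LHCGR were listed at 0 in all samples. The list summed to 2.88 to 4.43 and 2.50 to 5.50 TPM. Of 6 fibroblast markers 5 passed, led by COL1A1 at 50.7 TPM, and the list summed to 70.7 to 86.8 TPM with the empty vector and 83.2 to 89.1 TPM with Siglec-XII.

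**Figure D4:**
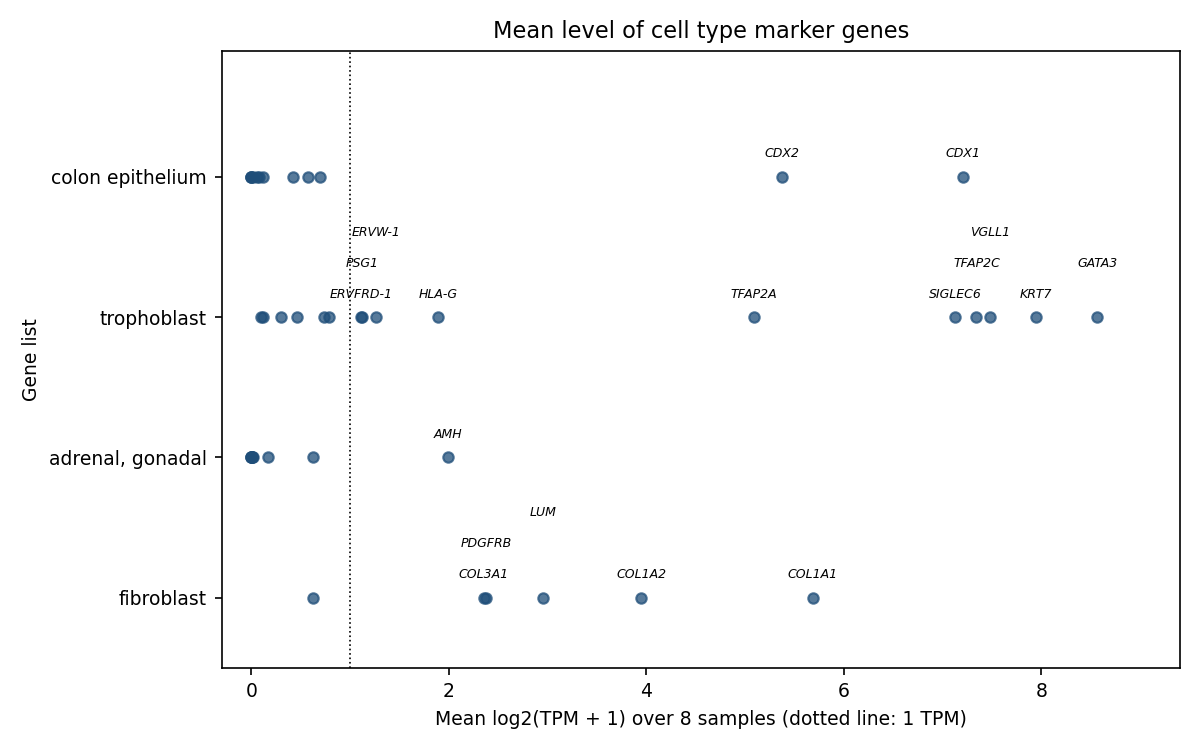
Mean level over 8 samples as log2(TPM + 1) on the horizontal axis, 1 point per gene, for 4 lists of cell type markers, with the dotted line at 1 TPM and names on genes above it. CDX1 and CDX2 were the 2 of 12 colon markers above the line, and GATA3 (380 TPM) and KRT7 (247 TPM) led the trophoblast list.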

How the data were processed

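RNA-seq of 8 samples labelled Caco-2 was used, 4 with empty pcDNA3.1 and 4 with SIGLEC12. The authors quantified reads with kallisto (0.45.0 in the submitters' processing notes) and deposited 1 table of log2(TPM + 1) with 63816 entries. The methods name hg19 as the reference, while some symbols stood on several entries, such as HLA-G on 8. Whether the transcript set used was of that build was not tested. Each column summed to 1e+06 TPM when taken back from the log scale, so depth per sample is unknown and no count test or counting interval was possible. The labels give about 25 to 40 (times 1e+06) paired reads of 100 bp per sample and an rRNA-depleting stranded kit, while the methods name a poly(A) kit.

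Groups were compared with limma 3.58.1 (lmFit, eBayes with trend) in R 4.3.3 on the values as deposited, over 15590 entries with at least 1 TPM in at least 4 samples, with Benjamini-Hochberg adjustment and a threshold of 0.05. Genes below the filter had a two-sided exact permutation test over 70 labellings. Member genes and lists were chosen with earlier results of these data known. A list gene on several entries was read from its highest-mean entry, and its other entries were not added. HSD17B8 (6 entries, 0.652 TPM) and GATA4 (2 entries, 0.670 TPM) were among those counted below the filter in this way. Named genes were SIGLEC12, the 9 genes, HSD3B2, the marker genes, per pathway list the called genes, up to 3 with the highest mean and those at 0 in all samples, and per tested member the 3 protein-coding entries most alike across samples. Figures were drawn with matplotlib 3.10.9. Settings varied were the pseudocount, filter, scaling, replicate block, variance trend, sample weights and each sample left out.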

Additional observations from a re-analysis of the deposited data

Results flagged for a closer look

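Within the groups, a single sample far from the other 3 was looked for in 31 genes and 62 groups. The rule is set to flag about 1 in 20 groups by chance, a rate that does not hold where most values are at or near 0. Such a sample was found in 2 of the 62 groups, both of CYP17A1, whose other values lay at or near 0, so the count is not set against that rate. CYP17A1 was far higher in 1 sample of each group. Empty vector sample 4 stood at 0.71 in log2(TPM + 1), and the other 3 lay between 0 and 0.05. Siglec-XII sample 2 stood at 1.11, and the other 3 were listed at 0. Siglec-XII sample 2 also had the highest STAR value, 0.589 TPM. WBP1L, which overlaps CYP17A1, lay between 72.6 and 98.5 TPM over the 8 samples, and its part in these values was not tested.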

How the results depend on the processing

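Of the 6 genes past the filter, 0 were called under any of the 16 alternatives that tested them. The other 3 genes entered only the limma fit with no filter, where 0 of the 9 were called. The 101 calls over all entries became 51 with no filter and 54 without the variance trend. With 1 sample left out they were 49 to 159 (49 without empty vector sample 3, 159 without empty vector sample 2). HSD17B1, CYP11A1 and STAR kept the sign of their difference under every alternative run for them, and CYP19A1 likewise, from -0.50 to -0.11. STAR rested on single samples: its difference was 0.22 with all 8 samples, 0.30 without Siglec-XII sample 1 (exact permutation p = 0.0286, the smallest that test allows) and 0.0855 without Siglec-XII sample 2 (exact permutation p = 0.229). Small differences in log2(TPM + 1) turned sign, and the cause was not tested. With quantile normalization the values were -0.0266 for HSD3B1, -0.0198 for STS, -0.0582 for STARD3, -0.0393 for STARD4, -0.0203 for CYB5A, -0.0223 for HSD17B7, -0.0249 for SUMF2 and -0.0169 for PRKAR1A. With equal upper quartiles they were -0.0571 for HSD3B1, -0.0190 for STS, -0.0449 for STARD3, -0.0342 for STARD4, -0.00511 for CYB5R3, -0.0167 for CYB5A, -0.0146 for HSD17B7, -0.00677 for SUMF2 and -0.0229 for PRKAR1A. The median over all tested entries was 0.0669 as deposited, 0.00954 with quantile normalization and 0.0115 with equal upper quartiles. With sample weights HSD3B1 was at -0.00729, STARD3 at -0.00106 and HSD11B2 at -0.00110. With each sample left out in turn the ranges were -0.0355 to 0.0393 for HSD3B1, -0.0425 to 0.0589 for STARD3, -0.0491 to 0.0120 for FDX1, -0.0419 to 0.0985 for STARD4, -0.0170 to 0.101 for CYB5A, -0.0281 to 0.148 for HSD17B12, -0.202 to 0.00215 for HSD17B4, -0.0619 to 0.110 for HSD11B2, -0.0281 to 0.0950 for SUMF2, -0.00994 to 0.101 for PRKAR1A and -0.190 to 0.260 for CYP17A1. CYP19A1 and HSD11B2 gave no value with a mean of at least 5 TPM required.

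For samples that share a replicate number, deviations from the group means correlated at r from -0.0742 to 0.0591 over 4 pairs. Of the 8 samples, 4 correlated best with their own number among the 4 samples of the other group, where some matches arise by chance. Whether such samples share a culture or a preparation was not tested. With the replicate block 69 entries and 0 of the 6 tested genes were called. Depth per sample is unknown, so the precision of the values of STAR, CYP11A1 and CYP17A1 cannot be given.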

Other observations

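Likeness of pattern was measured as Pearson's r over the 8 samples after each group's mean was taken off, for the tested genes against 15589 other entries, and is a description, since all entries come from the same libraries. For HSD3B1 the most alike protein-coding entries were COA7 (r = 0.988), KIAA0040 and MAN1A2, and 176 entries reached an r of 0.9. For HSD17B1 they were LRRC59 (r = 0.993), OTUD7B and ALAS1, with 107 entries at 0.9. For STS they were CYP51A1 (r = 0.991), ULBP1 and LAYN, with 90 entries at 0.9. For CYP19A1, whose empty vector sample 2 stood apart at 7.29 TPM, they were EDN1 (r = 0.997), SIK3 and UBN1, with 145 entries at 0.9. For STARD3 they were AUP1 (r = 0.996), SMG5 and CHFR, with 285 entries at 0.9. For FDX1 they were DMTF1 (r = 0.984), ZNF322 and ACTR3, with 70 entries at 0.9. How many entries reach an r of 0.9 by chance was not computed.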
